A study of Arabidopsis thaliana with 16 samples.

Results

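The genes described here encode 4 nuclear-encoded proteins of the photosynthetic thylakoid membrane in Arabidopsis thaliana: the antenna protein LHCB1.5 (AT2G34420, RefSeq symbol LHB1B2), the photosystem I subunit PSAN (AT5G64040), and the photosystem II subunits PSBW (AT2G30570) and PSBY (AT1G67740). Each is the only gene annotated on its probe. They were picked by function with earlier results of these data known, and PSB27, another photosystem II gene with a probe of its own, is not among them, so counts over the 4 are a description. The array holds 3439 probes, of which those with a single annotated gene cover 689 genes. Each of the 4 genes was read by 1 probe.

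In chloroplasts, light is captured by chlorophyll-binding antenna proteins and passed to the reaction centres of photosystem II and photosystem I. The core of each photosystem is encoded in the chloroplast, while the antenna proteins and many small subunits are encoded in the nucleus, made in the cytosol and imported through translocons of the envelope. Transcripts of such nuclear genes are known to depend on light and on the state of the plastid.

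The array was hybridised with total RNA from 8 samples of the wild type (WT) and from 8 of the ppi2 mutant, both in the ecotype Wassilevskija. The ppi2 mutant has a defect in the import of chloroplast precursor proteins. It lacks Toc159, a receptor of the outer envelope, and its seedlings are known to be albino. Tissue, age, growth conditions and batches are not part of the labels, and the question the comparison answers is which transcripts differ between ppi2 and WT. Impaired import cannot be told apart here from other traits of the mutant.

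Values were intensities between 0 and a ceiling of 100. Samples carry the numbers 1 to 8 within a genotype. Among samples of the same genotype consecutive ones resembled each other most, so each such pair was averaged and counted once (n = 4 per genotype). Nothing states which samples came from separate plants, so the p-values rest on a spread that may be technical. WT samples 5 to 8 were the dimmest, with median intensities of 0.0976 to 0.124, against 0.198 to 0.212 in WT samples 1 to 4 and 0.168 to 0.269 in ppi2. None of the 64 values of the 4 genes was listed at 0 or lay at the floor set for dim values. No gene of the lists for other tissue had a probe of its own (0 of 5 for roots and non-green plastids, 0 of 4 for seed storage), so the tissue could not be checked. RNA was extracted in bulk, so fewer green cells and less of a transcript per cell cannot be told apart.

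Differences are ppi2 minus WT on the log2 scale of quantile-normalized intensity, tested with limma over all probes. LHCB1.5 and PSAN fell in ppi2, PSBW rose, and PSBY did not pass the test at an adjusted p of 0.05. Thus 2 of the 4 genes were called lower, where 14.4% of all probes were, and 1 was called higher, where 14.2% were. In either direction 3 of 4 were called, against 28.6% of all probes, and with PSB27 counted as well 3 of 5. These shares include 244 probes at the floor in every sample, which could not be called and lower the shares. With those probes left out, 1091 of 3195 were called, and the same 3 of the 4 genes. The median difference of the 4 was -1.26 and the median of their absolute differences 2.59, against 0 and 0.723 over all probes.

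LHCB1.5 is a chlorophyll a/b-binding protein of the trimeric light-harvesting complex that serves mainly photosystem II. Its deposited intensity in the 8 WT samples had a lowest value of 11.4, a median of 17.1 and a highest of 23.6. In the 8 ppi2 samples these values were 1.80, 2.13 and 3.19. Even the highest ppi2 sample thus stood well under the lowest WT sample, and the genotypes did not overlap.

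After normalization the averaged pairs of LHCB1.5 had log2 levels of 3.48, 4.10, 4.20 and 4.55 in WT and of 0.59, 1.15, 0.73 and 1.11 in ppi2. The transcript fell 9.11-fold (-3.19 ± 0.25 SE, n = 4, 95% interval -3.78 to -2.59, limma adjusted p = 0.000311). An exact two-sided permutation test over the pairs gave p = 0.0286, the smallest that 4 against 4 allows. It was the second lowest difference of the 689 named genes and the 32nd lowest among all probes. LHCB1.5 has close relatives in the genome, LHCB1.1 to LHCB1.4. The annotation lists none of these 4 loci on any probe, and whether their transcripts bind to this one was not tested.

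PSAN is a small extrinsic protein bound to photosystem I at its lumenal face, where plastocyanin docks to deliver electrons. Its deposited intensity had a lowest value of 1.73, a median of 3.70 and a highest of 5.0 in WT. In ppi2 these were 0.569, 0.831 and 0.911. Here too no ppi2 sample reached the WT range, although WT itself was wide.

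PSAN pairs had log2 levels of 0.98, 1.41, 2.49 and 3.07 in WT and of -1.06, -0.93, -0.64 and -0.19 in ppi2. The fall was 6.46-fold (-2.69 ± 0.49 SE, n = 4, 95% interval -3.87 to -1.52, limma adjusted p = 0.00858; exact two-sided permutation p = 0.0286). Its size depended on the WT samples used. Set against WT pairs 1 and 2 it was 3.73-fold. With only WT pairs 3 and 4, which are the dim samples 5 to 8, it came to 11.2-fold. In the values as deposited it was 4.28-fold, and the call held in each of these fits (limma adjusted p = 0.0127, 0.0017 and 0.00542). The WT pairs of PSAN spanned 4.26-fold, more than those of LHCB1.5, which spanned 2.09-fold. Whether the dimness of WT samples 5 to 8 plays a part in this was not tested.

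PSBW is a low-molecular-weight subunit of photosystem II that spans the membrane once, known in Arabidopsis to help hold the core and its antenna together in supercomplexes. It moved in the other direction. The deposited intensity in WT had a lowest value of 5.54, a median of 15.5 and a highest of 30.0. In ppi2 it had a lowest value of 46.6, a median of 76.8 and a highest of 100. That highest value, in ppi2 sample 8, lay at the ceiling of the scale, so the level there may be larger than listed.

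The averaged pairs of PSBW had log2 levels of 2.50, 4.37, 4.13 and 4.34 in WT and of 6.11, 6.32, 6.32 and 6.58 in ppi2. The transcript rose 5.64-fold (2.50 ± 0.43 SE, n = 4, 95% interval 1.46 to 3.53, limma adjusted p = 0.00717; exact two-sided permutation p = 0.0286). WT pair 1 stood apart from the other WT pairs, and without it the rise was 4.14-fold with a smaller error (2.05 ± 0.13 SE, limma adjusted p = 0.000392). That pair was singled out for its distance in these data, so a smaller error follows from leaving it out. With any other pair left out instead, the rise was 5.32-fold to 6.38-fold and limma adjusted p was 0.0106 to 0.0248.

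The call for PSBW depended on how samples were scaled. When each sample was centred on the median of its positive values, the rise was 3.32-fold and did not pass (1.73 ± 0.61 SE, limma adjusted p = 0.0705). On that scale the WT pairs lay at 2.46, 4.54, 4.66 and 4.94 and the ppi2 pairs at 5.32, 5.56, 5.98 and 6.67. The genotypes still did not overlap, but the spread within each was wider. Quantile normalization replaces a value by that of its rank: 4 of the 8 ppi2 samples, with deposited intensities of 75.1 to 86.7, received the same normalized intensity of 79.8. The normalized SD of the ppi2 pairs, 0.195, does not carry the differences among those samples.

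PSBY is a small photosystem II protein whose gene in Arabidopsis encodes a precursor that is cut into a pair of similar proteins. Its deposited intensity had a lowest value of 0.558, a median of 1.72 and a highest of 3.82 in WT. In ppi2 these were 1.84, 2.91 and 3.75, a range that lay inside that of WT. Normalized log2 levels of the pairs were 1.22, 0.24, 2.14 and 0.65 in WT and 1.11, 1.30, 1.5 and 1.01 in ppi2.

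The difference in PSBY was 0.17 ± 0.41 SE (n = 4, limma adjusted p = 0.829; exact two-sided permutation p = 0.714). Its 95% interval of -0.80 to 1.14 leaves room for changes of 1.74-fold down or 2.20-fold up. The scatter came from WT, where pairs spanned 3.74-fold, against 1.41-fold in ppi2. The sign turned with the WT samples used, from 0.50 against WT pairs 1 and 2 to -0.16 against WT pairs 3 and 4, and neither difference passed (limma adjusted p = 0.323 and 0.846). In the values as deposited it was larger, 1.73-fold, and did not pass either (0.79 ± 0.54 SE, limma adjusted p = 0.328).

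**Figure D1:**
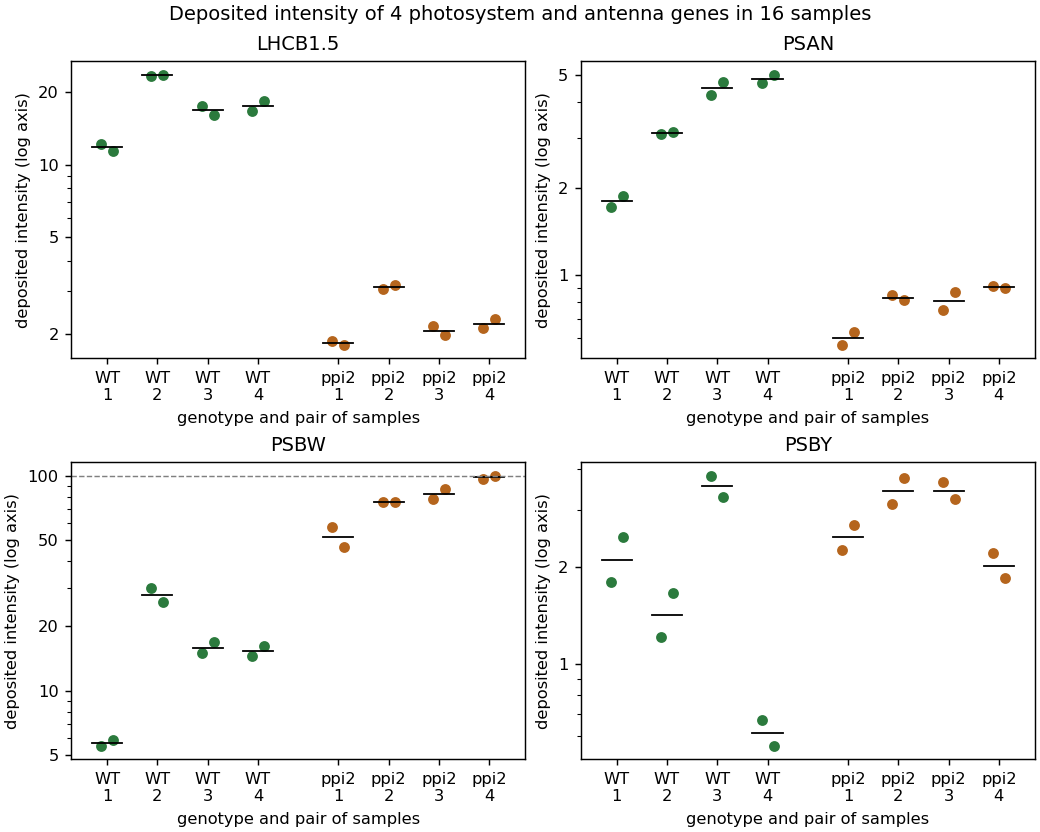
Deposited intensity on a log axis for the 4 genes, by genotype and averaged pair. Points are the 16 samples, black lines the geometric mean of a pair, and the dashed line in the PSBW panel the ceiling of 100. All ppi2 points lie below WT for LHCB1.5 and PSAN and above WT for PSBW, while for PSBY they lie within the WT range.

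The same levels can be read as ranks, which need no scaling between samples. Quantile normalization works from these ranks, so they are another view of the normalized levels and no separate evidence. Among the 3439 probes of a sample, LHCB1.5 ranked 16 to 37 from the brightest in WT but 174 to 273 in ppi2. PSAN moved from ranks of 48 to 214 in WT to 467 to 895 in ppi2. PSBW ranked 17 to 75 in WT and was among the 5 brightest probes in every ppi2 sample. PSBY had ranks of 83 to 403 in WT, which enclosed its ranks of 130 to 219 in ppi2. The median rank of LHCB1.5 was 23.0 in WT and 213.5 in ppi2, and that of PSBW 21.5 and 4.0. Probes differ in efficiency, so a rank is read against the same gene in the other genotype.

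**Figure D2:**
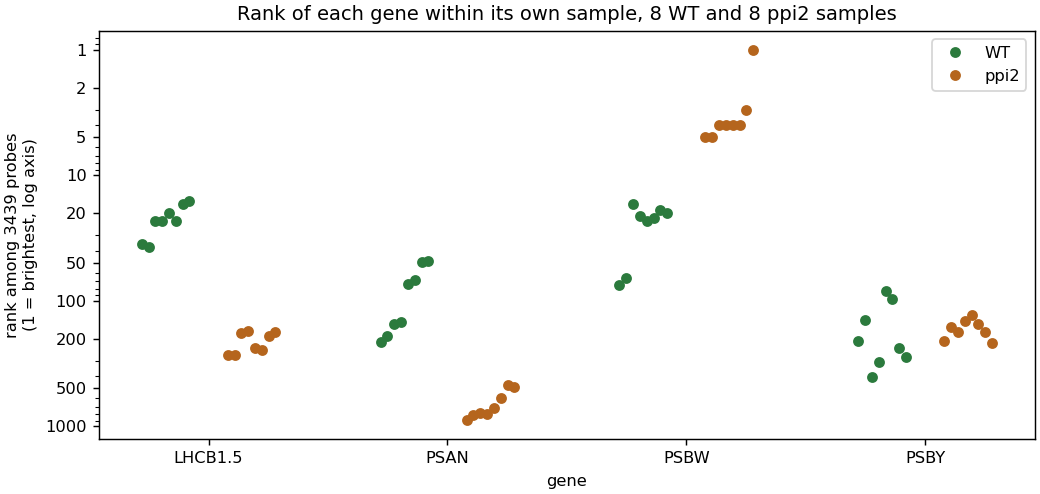
Rank of the 4 genes among the 3439 probes of each sample, on an inverted log axis where 1 is the brightest, for 8 WT and 8 ppi2 samples. LHCB1.5 and PSAN rank lower in all ppi2 samples than in any WT sample, PSBW ranks higher, and the PSBY ranks overlap.

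For 3 of the 4 genes, every ppi2 sample lay outside the range of the 8 WT samples on the normalized scale. That was so for 21.2% of all probes, a share that again includes the 244 probes at the floor in every sample. The absolute differences of LHCB1.5, PSAN and PSBW ranked 81st, 166th and 206th among the 3439 probes, and that of PSBY 2735th. Over all probes 488 were called higher and 496 lower, but in the values as deposited 647 were higher and 235 lower, with a median difference of 0.30. Relative to that shift the deposited differences were -3.20 for LHCB1.5, -2.40 for PSAN, 2.12 for PSBW and 0.49 for PSBY. Centring each sample on the median of its positive values moved them further, to -3.59, -2.78, 1.73 and 0.11 in the same order.

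**Figure D3:**
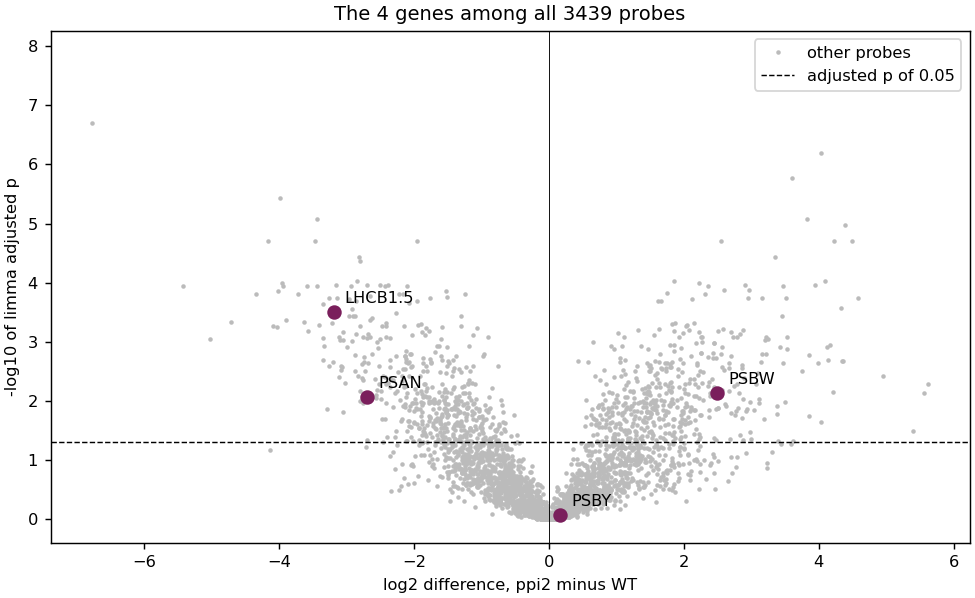
Log2 difference between ppi2 and WT against the -log10 of the limma adjusted p for all 3439 probes, with the 4 genes marked and the threshold of 0.05 dashed. LHCB1.5 at -3.19 and PSAN at -2.69 lie on the left, PSBW at 2.50 on the right, and PSBY at 0.17 near the centre.

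Ratios between genes of the same sample show how unequally they changed, whatever factor a whole sample is scaled by. They were taken from deposited intensities and averaged over a pair. Their absolute level has no meaning, since probes differ in efficiency, so only their change is given. They are described without a test. The ratio of PSBW to PSAN was 22.9-fold higher in ppi2 (log2 change 4.52), with SDs over pairs of 0.725 in WT and 0.149 in ppi2. The ratio of PSBW to LHCB1.5 was 40.0-fold higher (5.32, SDs of 0.55 and 0.416). In both ratios the 4 ppi2 pairs lay above the 4 WT pairs, and the log2 change was similar against WT pairs 1 and 2 (4.18 and 5.45) and against WT pairs 3 and 4 (4.85 and 5.19).

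Within photosystem II the separation was less clear. The ratio of PSBW to PSBY was 3.09-fold higher in ppi2, but the genotypes overlapped, as WT pairs spanned 9.18-fold (log2 changes of 1.89 against WT pairs 1 and 2 and 1.36 against pairs 3 and 4). PSBY was higher relative to both genes that fell: its ratio to PSAN was 7.41-fold and that to LHCB1.5 13.0-fold higher, with no overlap in either. The size of the first depended on the WT pairs used, with a log2 change of 2.29 against pairs 1 and 2 and of 3.49 against pairs 3 and 4, while the second had changes of 3.56 and 3.83. The ratio of PSAN to LHCB1.5, the genes that fell, was 1.75-fold higher in ppi2 and overlapped between genotypes. Its log2 change was 1.27 against WT pairs 1 and 2 and 0.34 against pairs 3 and 4.

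**Figure D4:**
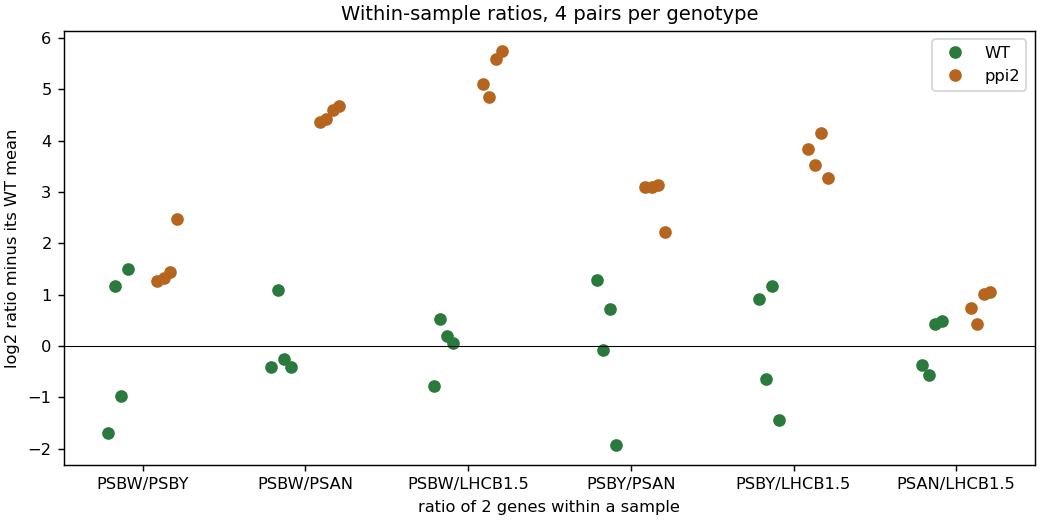
Log2 ratio of pairs of genes within a sample, from deposited intensities and shown minus the WT mean of that ratio, with 4 averaged pairs per genotype as points. The PSBW to PSAN ratio is 4.52 and the PSBW to LHCB1.5 ratio 5.32 higher in ppi2, while PSBW to PSBY and PSAN to LHCB1.5 overlap.

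Each gene varied more among WT pairs than among ppi2 pairs. For LHCB1.5 the pairs had an SD of 0.444 in WT against 0.276 in ppi2, for PSAN 0.962 against 0.383, for PSBW 0.894 against 0.195, and for PSBY 0.823 against 0.220. This was not particular to them, as the WT SD was the larger in 85.4% of the 3195 probes that were not at the floor in every sample, with medians of 0.662 and 0.291. Samples of a WT pair differed less than WT pairs did, with SDs within pairs of 0.083, 0.075, 0.122 and 0.264 in the same order of genes, against a median of 0.362 over these probes. Within ppi2 pairs the SDs were 0.047, 0.099, 0.020 and 0.209, against a median of 0.158. The 0.020 of PSBW reflects partners of equal rank, which received equal normalized values. For example, ppi2 samples 1 and 2, at 57.9 and 46.6 as deposited, both became 69.0. An SD within pairs is that of single samples and an SD among pairs that of averaged pairs. The 0.209 and 0.220 of PSBY in ppi2 are therefore not like measures.

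Other genes whose profile over the 16 samples was most like that of the 4 were found by the root mean square difference of log2 levels, each centred on its own mean. There were 390 other genes above the floor in every sample. Since the genotype difference is part of a profile, similar genes share its direction by construction. The closest to LHCB1.5 were AT3G06570 (0.277), PRA1.B6 (AT5G07110, a prenylated RAB acceptor, 0.351) and AT2G35490 (a plastid fibrillin, 0.352), where the median gene was at 1.76. The same fibrillin was the closest to PSAN (0.287), followed by AT5G53920 (0.372) and LPA19 (AT1G05385, 0.378), an assembly factor of photosystem II, with a median of 1.61. The normalized intensity of AT2G35490 was 0.812 in WT and 0.119 in ppi2, and that of LPA19 was 0.915 and 0.142.

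The closest profiles to PSBW were those of AT1G17160 (0.360), AT5G64150 (0.417) and AT3G16310 (0.482), with a median of 1.47. They were higher in ppi2 by 2.09 ± 0.32, 2.47 ± 0.30 and 1.85 ± 0.43 SE (limma adjusted p = 0.00429, 0.00185 and 0.02). Closest to PSBY were AT5G49800 (0.350), AT3G53470 (0.399) and AT5G38750 (0.404), with a median of 0.914, and none of these passed the test (limma adjusted p = 1.0, 0.739 and 0.408).

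Few other genes of the photosynthesis lists could be read. Of 66 loci listed for the antenna, both photosystems, electron carriers and ATP synthase, 5 had a probe of their own: 1 of 24 antenna genes, 1 of 13 of photosystem I, 3 of 14 of photosystem II and 0 of 15 carriers and ATP synthase subunits. The fifth was PSB27 (AT1G03600), an assembly and repair factor on the lumenal side of photosystem II. Its deposited intensity ranged from 0.370 to 4.27 in WT and from 0.919 to 1.85 in ppi2, and its difference of -0.73 ± 0.37 SE did not pass (95% interval -1.61 to 0.14, limma adjusted p = 0.187). Of the 5 measured, 1 rose, 2 fell and 2 did not pass. This count covers the listed loci only. The lists leave out LPA19, named above, which was lower in ppi2 (-2.68 ± 0.48 SE, limma adjusted p = 0.00758). They also leave out PRK of the Calvin cycle, which was lower (-1.98 ± 0.37 SE, limma adjusted p = 0.00935). NdhS of the chloroplast NDH complex, left out too, was higher (1.96 ± 0.44 SE, limma adjusted p = 0.017). Others left out went both ways. The photosystem assembly gene AT1G22700 (2.665 ± 0.348 SE) and the PsbP-domain gene AT1G76450 (5.565 ± 0.974 SE) were higher (limma adjusted p = 0.00227 and 0.00724). PIFI was lower (-1.554 ± 0.27 SE, limma adjusted p = 0.00711), and NdhN did not pass (0.015 ± 0.034 SE, limma adjusted p = 0.821). These genes are examples and not a full set. Another 3 probes listed several genes with a locus of the lists among them and were not used.

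**Figure D5:**
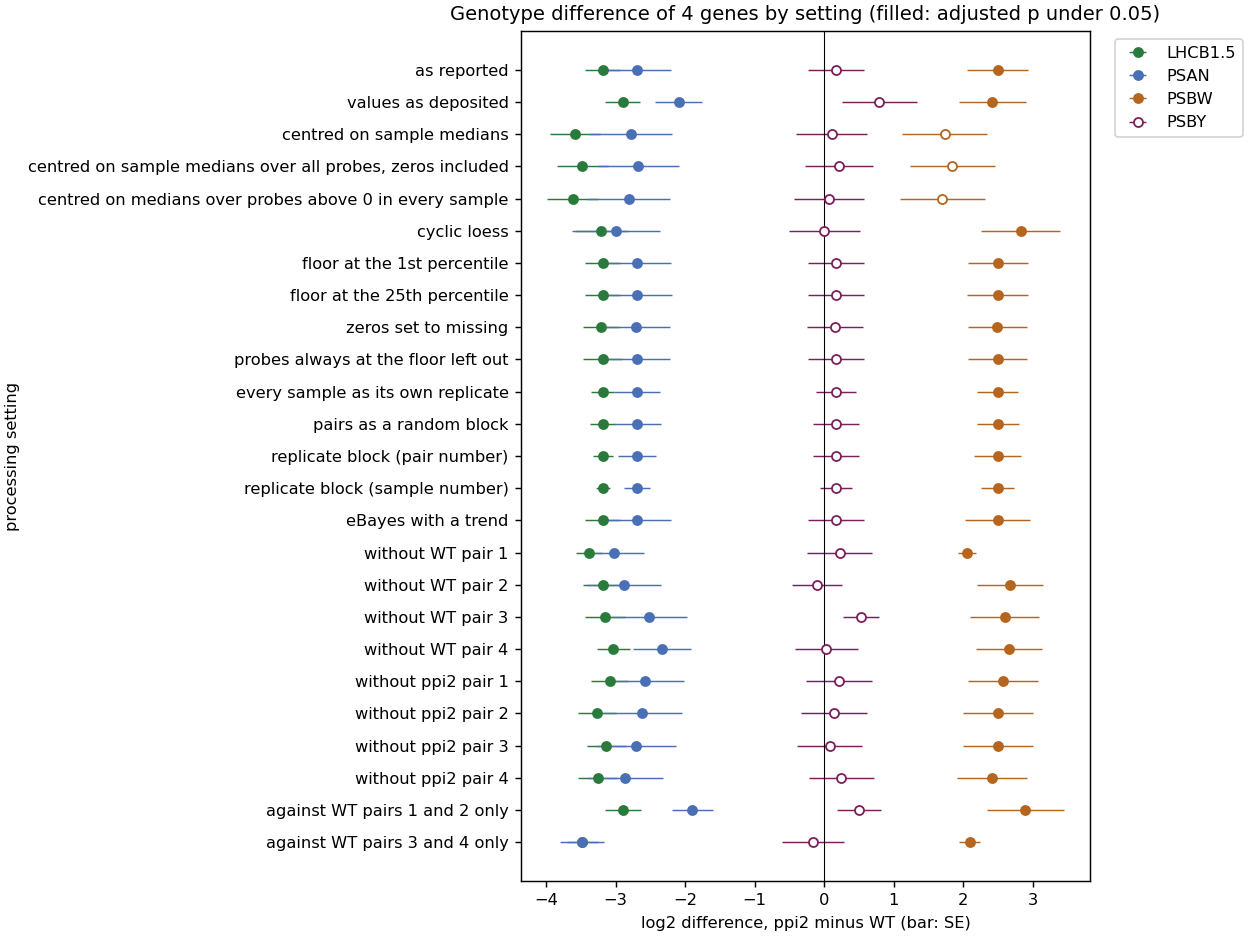
Log2 difference between ppi2 and WT of the 4 genes as reported and under 24 other settings, with the SE as a bar; filled points passed an adjusted p of 0.05. LHCB1.5 stays between -3.62 and -2.90 and PSAN between -3.49 and -1.90, PSBW lies between 1.70 and 2.89 with unfilled points under the 3 median centrings, and PSBY is unfilled throughout and crosses 0.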

How the data were processed

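The authors' deposited table held 1 intensity per probe and sample on a linear scale; quantification, background correction and scaling are not given in the sources used here. All columns were matched to samples by label. Of 692 probes with 1 gene in the platform annotation, 690 matched RefSeq (TAIR10.1, used for names only), giving 689 genes; 870 probes listed several genes and 1877 none. Intensities were quantile-normalized, set to a floor at the 5th percentile of positive values (0.0338), taken to log2 and averaged over consecutive samples. Partners correlated at 0.902 to 0.979 across probes. Among samples of its own genotype, each of the 16 samples was closest to its partner. Genotypes were compared with limma 3.58.1 in R 4.3.3 (lmFit, eBayes) over 3439 probes with Benjamini-Hochberg adjustment, and with exact permutation tests (scipy 1.17.1). The procedure was tried on simulated data with independent pairs and the same spread in both genotypes. In the real data the WT SD was the larger in 85.4% of probes not at the floor in every sample. That trial therefore does not show how the test behaves under such unequal spread. Arrays carry no read depth, so their number limits the precision. The genes, lists and tests were chosen with earlier results of these data known. Named genes were the 4, the 3 genes with the most similar profile for each, and measured genes of the photosynthesis lists. Further genes, such as PRK and NdhS, were given as examples and not by a fixed rule. The alternatives covered scaling, the floor, the unit of replication, left-out pairs and subsets of WT. The 2 further median centrings were added after the data were seen.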

Additional observations from a re-analysis of the deposited data

Results flagged for a closer look

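Among the 4 genes, 1 averaged pair lay far from the other 3 of its genotype: PSBW in WT pair 1, with a log2 level of 2.50 against 4.13 to 4.37 in the other WT pairs. Both samples of that pair were low, with deposited intensities of 5.54 and 5.90. In all, 8 groups of 4 pairs were examined, where a chance rate of 1 in 20 would give 0.4.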

How the results depend on the processing

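The falls of LHCB1.5 and PSAN kept their direction and passed the test in all 24 alternatives, with limma adjusted p of at most 0.00398 and 0.0298. PSBW stayed higher in all 24 and passed in 21. Its log2 difference was 1.73 with samples centred on medians of positive values (limma adjusted p = 0.0705), 1.84 on medians over all probes (0.0602) and 1.70 on medians over probes above 0 in every sample (0.0739); the cause was not tested. PSBY passed in none; its difference was 0.79 in the values as deposited, the largest of the 24, turned to -0.16 against WT pairs 3 and 4 alone and lay between -0.11 (without WT pair 2) and 0.53 when 1 pair was left out. The count of probes called, 984, was 1616 with all samples taken as separate replicates and 1719 with the sample number as a replicate block. Deviations of pairs 1 to 4 correlated across probes with those of the same number in the other genotype at 0.381, 0.307, 0.0313 and 0.330. For pairs of different numbers the range was -0.230 to 0.0569, so pairs 1, 2 and 4 lay above it and pair 3 inside it. Deviations were taken from the mean of the pairs of a genotype. Positive values for equal numbers therefore push the others down, and that range is no independent reference. The labels state no pairing and the main fit used none, and what equal numbers share was not tested. With the pair number as a replicate block 846 probes were called, and the same 3 of the 4 genes passed. Their SEs were then 0.144 for LHCB1.5, 0.273 for PSAN and 0.340 for PSBW, against 0.25, 0.49 and 0.43 as reported. The ceiling limits what can be read from PSBW in ppi2.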
